A study of Mus musculus with 2 samples.

Results

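The genes described here are Pck1, Gpd1, Gpd2, Gpam, Agpat2, Agpat3, Lpin1, Dgat1 and Dgat2, which encode enzymes that make glycerol phosphate and build triglyceride on it. They were picked by exact match of the gene symbol in the deposited table, which gave 9 of 10761 usable symbols and 13 of 14189 transcript rows. Brown adipose tissue came from male C57BL6/J mice, 8 to 12 weeks old, and every mouse was fed for 10 days on food that supplied 60% of its calories as fat. The HFD control mice had this food without SML, and whether they were injected with a vehicle is not stated. The SML mice had the same food and SML given intraperitoneally at 5 mg per kg body weight. The labels do not spell out SML, and the title of the study names sesaminol, a sesame lignan. There was 1 poly(A) RNA library per group. The number of animals behind each library is unknown, and no group on an ordinary diet was analysed here.

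Triglyceride is assembled on a backbone of glycerol-3-phosphate. Fat cells obtain that backbone from glucose through GPD1, from lactate and amino acids through PCK1 (glyceroneogenesis), or by phosphorylating free glycerol with glycerol kinase. GPAT enzymes add a first fatty acid, AGPAT enzymes a second, lipins remove the phosphate to leave diacylglycerol, and DGAT enzymes add the last fatty acid. Brown fat fills and empties its triglyceride droplets as it burns fatty acids, and it is known for a glycerol kinase activity that white fat largely lacks.

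Upstream sequences were searched for 5 short motifs on both strands, because Pck1 is a textbook target of cAMP signalling and fat cell genes are bound by C/EBP factors and PPARγ. RefSeq promoters (build GRCm38.p6, from 250 bases before to 50 bases after a start site) were found for 6 of the 9 genes, with 8 start sites in all. The motifs were the cAMP response element TGACGTCA, its variant TTACGTCA, the C/EBP site TTGCNNAA, the DR1 element (a direct repeat of AGGTCA with 1 base of any kind between the copies) bound by PPARγ with its partner RXR, and the E-box CACGTG. The Pck1 promoter is shown whole up to its start site for its match to the variant, and short stretches of Gpd2 and Agpat3 for their C/EBP matches. Capitals mark the match, and each stretch runs 5′ to 3′ on the strand of its gene.
Pck1, chr2:173152823-173153072, plus strand: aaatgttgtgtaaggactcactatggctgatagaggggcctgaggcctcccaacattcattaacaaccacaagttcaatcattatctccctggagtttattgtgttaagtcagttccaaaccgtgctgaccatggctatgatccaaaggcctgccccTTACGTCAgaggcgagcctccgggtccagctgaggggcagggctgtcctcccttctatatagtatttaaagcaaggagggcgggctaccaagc
Gpd2, chr2:57237576-57237615, plus strand: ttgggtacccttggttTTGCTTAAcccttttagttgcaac
Agpat3, chr10:78351826-78351865, minus strand: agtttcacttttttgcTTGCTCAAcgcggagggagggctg

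The variant TTACGTCA lay 93 to 86 bases before the Pck1 start and in 0.499% of 32851 mouse promoters of the same length. The C/EBP letters were in 10.8% of all promoters and in 3 of the 8 searched here, those of Gpd2, Agpat3 and the more distant start of Gpam. The Gpam match lay after that start, at bases 9 to 16, and the start was 27791 bases upstream of the deposited one. The Gpam start 30 bases from the deposited one had no match. The letters TGACGTCA (1.79% of promoters), DR1 (0.0396%) and CACGTG (7.15%) were in 0 of the 8. Matches to different motifs did not fall in the same promoter of the set, so none overlapped. The start sites of Pck1, Agpat2 and Agpat3 in RefSeq, and that of the Gpd2 stretch shown, were the same bases as those of the deposited loci. Another RefSeq start of Gpd2, 704 bases downstream of the deposited one, had no match. The Lpin1 start lay 21196 bases upstream of the deposited start. These matches are letters in a window, and no binding was measured.

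None of the 9 genes differed by as much as 1.5-fold between the libraries. Abundance is given as FPKM, which corrects the fragments of a transcript for its length and for the size of the library, summed over the rows of a symbol. A difference is log2(FPKM + 1) in SML minus HFD control, and 0 of 9 genes passed 1.5-fold (0.585 on that scale) while 11.2% of the 9870 genes kept (mean of both libraries at or above 1 FPKM) did, 5.45% higher and 5.74% lower. At that share 1.01 of 9 genes would be past the size, so a count of 0 is near the background. Among 3587 genes with a mean FPKM of 15 or more, the range of the 9 enzymes, 8.95% passed it, 4.13% higher and 4.82% lower. At a smaller size of 0.322 on the log2 scale the count was again 0 of 9, with 33.2% of all genes past it, 17.0% higher and 16.3% lower. With a linear trend on GC content and transcript length removed, however, Agpat2 was past this smaller size at 0.35. The differences ran from -0.23 for Lpin1 to 0.21 for Pck1 with a median of 0.10, and the quartiles of all genes were -0.21 and 0.22 around a median of 0.

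With 1 library a group there was no replicate, no test and no p-value, and each value below compares 2 libraries. For each gene the ratio of the deposited scaled counts (SML over HFD control) is given with a 95% exact binomial interval, which holds counting error alone. The variation from animal to animal, the duplicates made by PCR and the choice of scaling between the libraries are outside it. The libraries held 12001476 (HFD control) and 8503628 (SML) fragments in the deposited table. The interval left out 1 for 8 of the 9 genes, and for 48.6% of all genes. Intervals narrow as counts rise, and the share among genes of a like level was not computed.

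The order of the genes by level was the same in both libraries and spanned over 2 orders of magnitude. Gpd1 was the most abundant at 3572 FPKM in HFD control, followed by Agpat2, Dgat2, Pck1, Dgat1, Agpat3, Gpd2, Lpin1 and then Gpam at 15.1 FPKM. Among the 9870 genes ranked by mean FPKM, Gpd1 stood at rank 35, Agpat2 at 72, Dgat2 at 78 and Pck1 at 171, whereas Gpam stood at 3554. Summed FPKM of the 9 genes was 8835 in HFD control and 9688 in SML. Which neighbours in this order differ beyond the spread between animals could not be judged without replicates. Dgat1 and Agpat3 were closest in the SML library, at 238 and 226 FPKM.

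**Figure D1:**
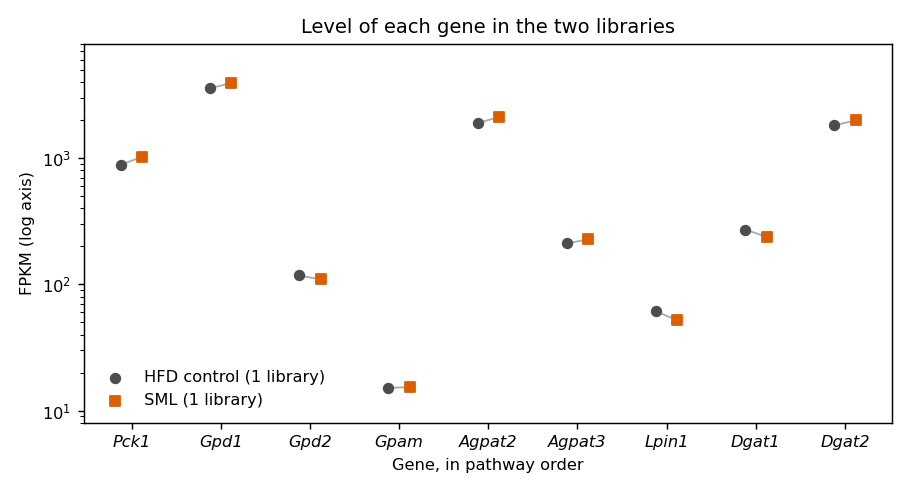
FPKM (log axis) of the 9 genes in pathway order, 1 point per library, circles for HFD control and squares for SML. Each pair of points lies close together, while the genes range from Gpam at 15.1 FPKM to Gpd1 at 3926 FPKM.

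Of the 9 genes, Pck1 had the largest ratio. With the GC and length trend removed, however, its log2 difference was 0.27, below that of Agpat2 at 0.35. Pck1 encodes the cytosolic phosphoenolpyruvate carboxykinase of glyceroneogenesis and stood at 883 FPKM (HFD control) against 1023 FPKM (SML). Its count ratio was 1.16 (1.14 to 1.18) on 28523 and 24281 fragments. Pck2, the mitochondrial form, was far scarcer, at 6.61 and 6.12 FPKM with a ratio of 0.925 (0.766 to 1.12), so Pck1 made up 99.3% and 99.4% of the FPKM of the pair.

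Gpd1, the cytosolic dehydrogenase that reduces dihydroxyacetone phosphate to glycerol-3-phosphate, stood at 3572 and 3926 FPKM, a ratio of 1.10 (1.09 to 1.11) on 123340 and 99621 fragments. Gpd2, the mitochondrial dehydrogenase that runs the opposite reaction and passes the electrons to the respiratory chain, stood at 117 and 109 FPKM, a ratio of 0.932 (0.901 to 0.964) on 8471 and 5809 fragments. Both enzymes together form the glycerol phosphate shuttle, and their ratios lay on opposite sides of 1. Gpd1 was 30.4 times as abundant as Gpd2 in FPKM in HFD control and 35.9 times in SML, and the count ratio of the pair was 1.18 times as large in SML (1.14 to 1.22, a normal approximation on the log scale for counting error). Gpd1l, a relative of Gpd1, stood at 9.51 and 6.89 FPKM with a ratio of 0.724 (0.625 to 0.838).

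The first acylation step had the scarcest transcript of the set. Gpam, which encodes the mitochondrial glycerol-3-phosphate acyltransferase GPAT1, stood at 15.1 and 15.3 FPKM. Its ratio of 1.01 (0.902 to 1.13) had the widest interval of the 9, on 732 and 544 fragments, and was the only one to include 1. Agpat6, the older symbol of the endoplasmic reticulum enzyme GPAT4, was 6.43 times as abundant as Gpam in HFD control and 6.95 times in SML, at 97.3 and 106 FPKM with a ratio of 1.09 (1.05 to 1.14). Agpat9 (GPAT3) stood at 7.22 and 7.96 FPKM, so Gpam made up 12.7% of the FPKM of these 3 genes in HFD control and 11.8% in SML.

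The second acylation step was dominated by Agpat2, whose loss causes lipodystrophy. Agpat2 stood at 1891 and 2111 FPKM, a ratio of 1.11 (1.10 to 1.13) on 34935 and 28634 fragments. Agpat3, which acts on lysophosphatidic acid and also in phospholipid remodelling, stood at 211 and 226 FPKM, a ratio of 1.07 (1.04 to 1.10) on 9122 and 7191 fragments. Both ratios lay above 1, and Agpat2 made up 86.5% and 86.7% of the FPKM of Agpat1 to Agpat5 in HFD control and SML. Agpat2 was 8.95 times as abundant as Agpat3 in HFD control and 9.32 times in SML. Agpat1 had a ratio of 1.12 (1.04 to 1.20) at 76.5 and 86.2 FPKM. Agpat5 had the largest ratio of these relatives, 1.49 (1.27 to 1.75), at 6.14 and 9.17 FPKM, a log2 difference of 0.51 that stayed under the size rule.

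Lpin1, the phosphatidate phosphatase that yields diacylglycerol and that also acts with PGC-1α in the nucleus, had the lowest ratio of the 9. It stood at 61.0 and 51.9 FPKM with a ratio of 0.872 (0.831 to 0.915) on 4312 and 2766 fragments. Dgat1 was close to it, at 0.875 (0.839 to 0.912). When only the highest row of each symbol was taken, the log2 difference was -0.14 for Lpin1 and -0.19 for Dgat1. Lpin2 and Lpin3 were close to the detection filter at 1.40 and 1.35 FPKM and at 1.45 and 1.47 FPKM, so Lpin1 made up 95.5% of lipin FPKM in HFD control and 94.8% in SML. Ctdnep1, which encodes the phosphatase that activates lipins, stood at 98.0 and 105 FPKM, and Cnep1r1, its regulatory subunit, at 7.49 and 11.2 FPKM with a ratio of 1.49 (1.20 to 1.85).

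The enzymes of the last step, which share no sequence family, had ratios on opposite sides of 1. Dgat1 stood at 271 and 238 FPKM, a ratio of 0.875 (0.839 to 0.912) on 5660 and 3643 fragments. Dgat2 stood at 1814 and 1987 FPKM, a ratio of 1.09 (1.08 to 1.11) on 49792 and 40063 fragments. Dgat2 was 6.69 times as abundant as Dgat1 in HFD control and 8.36 times in SML, and the count ratio of the pair in SML divided by that in HFD control had an interval of 1.20 to 1.31 (counting error only). Dgat1 made up 13.0% of the FPKM of the pair in HFD control and 10.7% in SML. With a linear trend of the difference on GC content and transcript length removed, the log2 difference of Dgat1 went from -0.19 to -0.04 and that of Dgat2 from 0.13 to 0.26, so the gap within the pair remained.

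**Figure D2:**
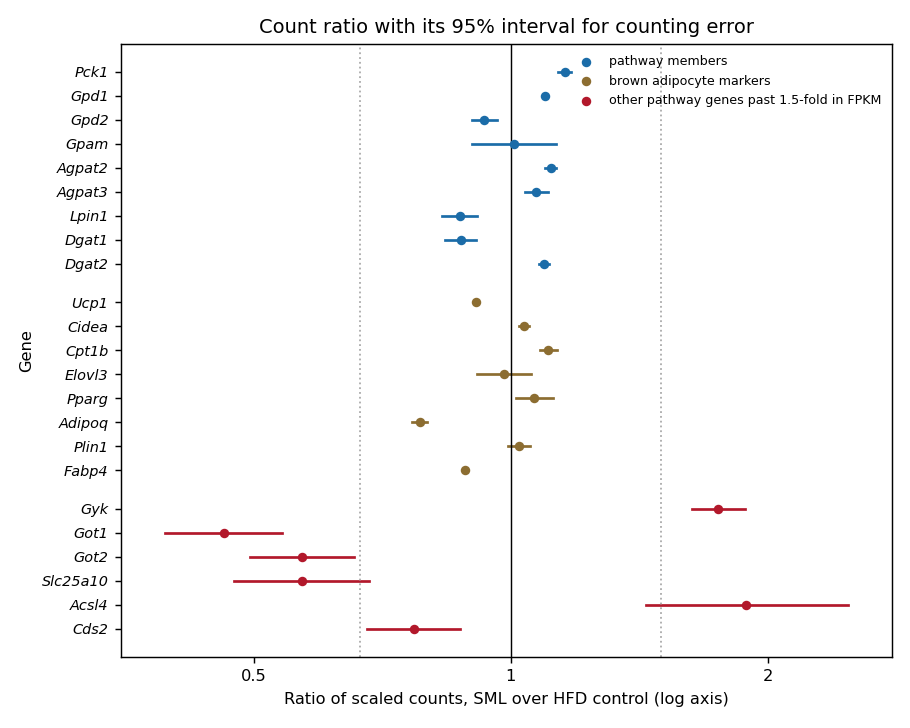
Ratio of scaled counts in SML over HFD control (log axis) with its 95% interval for counting error, for the 9 genes, 8 brown adipocyte markers and the 6 other pathway genes past 1.5-fold in FPKM. Dotted lines mark 1.5-fold. The 9 genes lie between 0.872 and 1.16, whereas Gyk lies at 1.75 and Got1 at 0.462.

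Each of 7 genes had a single transcript row, and Gpd2 and Lpin1 had 2 and 4 rows. Of the 13 rows 11 had a mean FPKM of at least 1, and 0 of these 11 passed 1.5-fold, beside 10.2% higher and 9.82% lower among the 11936 transcript rows of the table with that mean. The main Gpd2 row held 98.6% of Gpd2 FPKM in HFD control and 97.3% in SML. The minor Gpd2 row stood at 1.69 and 2.95 FPKM, a count ratio of 1.74 (1.37 to 2.22) on 125 and 160 estimated fragments, and the main row had a ratio of 0.920 (0.889 to 0.951).

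Lpin1 is known to be spliced into several forms. Its main row stood at 43.8 and 39.7 FPKM (ratio 0.905, 0.856 to 0.958) and the next at 16.7 and 12.2 FPKM (ratio 0.728, 0.660 to 0.802). The other 2 rows were at 0.15 and 0.36 FPKM in HFD control and were listed at 0 in SML, although their SML scaled counts, 16.4 and 48.6, exceeded the HFD control values of 7.14 and 16.8. An FPKM of 0 in the table can thus stand beside fragments above 0, which held for 274 rows in HFD control and 1443 in SML. Such zeros lower the FPKM more often in SML, and the shares of all genes past 1.5-fold were computed with them as listed. With implied FPKM in their place the median difference of all genes was 0.0047. With both Lpin1 rows set to the FPKM implied by their counts the Lpin1 sum in SML was 53.2, and the log2 difference of the gene was -0.19. The main row alone differed by -0.14. The intervals of single rows do not cover the error of assigning fragments between overlapping transcripts.

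**Figure D3:**
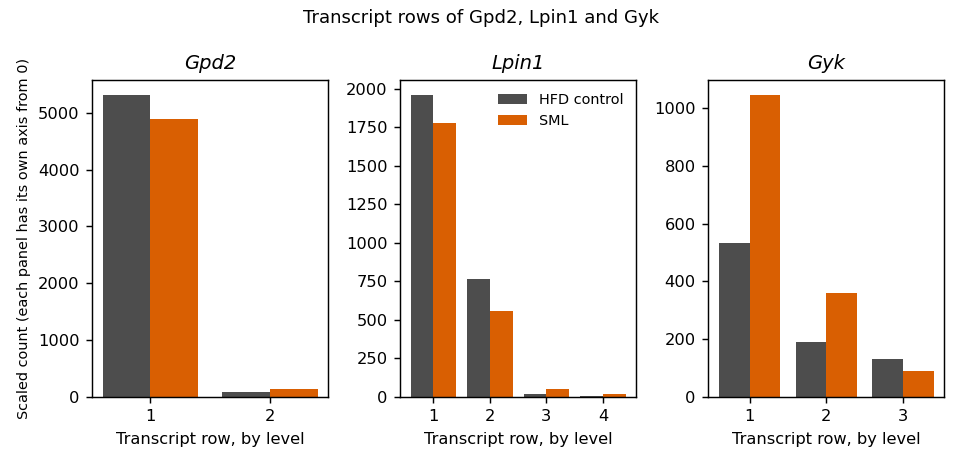
Scaled counts of each transcript row of Gpd2, Lpin1 and Gyk in HFD control (grey) and SML (orange), rows ordered by HFD control FPKM, with a separate axis from 0 in each panel. The main Gyk row is 1.96 times as high in SML, the third Gyk row is lower, and the Gpd2 and Lpin1 rows with most fragments differ little.

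In the 4 lists of genes around the 9 enzymes, 6 of 49 measured genes passed 1.5-fold, 2 higher and 4 lower. That is 12.2%, near the 11.2% of all genes (5.45% higher, 5.74% lower), and the counts of the single lists are read against the same shares. Gyk is the symbol in the table for the glycerol kinase gene Gk, whose product turns free glycerol into glycerol-3-phosphate. Its level was 24.1 FPKM (HFD control) and 42.3 FPKM (SML), with a ratio of 1.75 (1.63 to 1.88) on 1340 and 1726 fragments, and a log2 difference of 0.79. The main row went from 15.2 to 29.8 FPKM (ratio 1.96, 1.798 to 2.149) and the second from 5.27 to 10.0 FPKM (1.90, 1.63 to 2.21). The third row ran the other way, from 3.67 to 2.47 FPKM (0.672, 0.529 to 0.860), and held 15.2% of Gyk FPKM in HFD control and 5.84% in SML. After correction for GC content and length the Gyk difference was 0.58, just under the size rule. Aqp7, which encodes the glycerol channel of fat cells, stood at 84.6 and 66.8 FPKM, a ratio of 0.788 (0.740 to 0.840).

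In the list of glycerol supply and glyceroneogenesis genes 1 of 13 measured genes passed 1.5-fold upward in SML and 3 passed it downward, beside 5.45% and 5.74% of all genes. The median difference was -0.22. Got1 and Got2, the cytosolic and mitochondrial aspartate aminotransferases, were 2.17-fold (1.85 to 2.54) and 1.75-fold (1.53 to 2.02) lower in SML. Their levels were 25.3 and 11.7 FPKM for Got1 and 23.9 and 13.7 FPKM for Got2. Slc25a10, the mitochondrial dicarboxylate carrier, stood at 8.10 and 4.62 FPKM and was 1.75-fold (1.46 to 2.11) lower. Corrected for GC content and length it was at -0.49, under the size rule. The abundant malate dehydrogenases differed little, Mdh1 at 637 and 688 FPKM and Mdh2 at 2152 and 2168 FPKM. Slc25a1, the citrate carrier, stood at 449 and 339 FPKM with a ratio of 0.754 (0.728 to 0.780). Pcx, the pyruvate carboxylase that feeds PCK1 with oxaloacetate, stood at 198 and 170 FPKM with a ratio of 0.855 (0.829 to 0.882).

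Of 11 measured other acyltransferases, lipins and lipin regulators 0 passed the size rule, with a median of 0.10. Lclat1 of this list passed it upward when only the highest row of each symbol was taken. Of 9 acyl-CoA supply genes 1 passed it upward and 0 downward, with a median of 0.13, and 1 of 9 is near the 11.2% of all genes. That gene was Acsl4, a ligase for arachidonic acid, at 1.49 and 2.81 FPKM (1.89-fold, 1.44 to 2.48, on 95 and 132 fragments). Its difference was 0.37 after correction for GC content and length. Its transcript rows ran in opposite directions, 1 from 0.70 to 2.81 FPKM and the other from 0.79 FPKM to a listed 0. Acsl1, the main long-chain ligase of fat cells, stood at 427 and 490 FPKM with a ratio of 1.15 (1.12 to 1.17). Acsl5, another ligase, stood at 103 and 95.7 FPKM, and Dbi, which encodes the acyl-CoA binding protein, at 7125 and 6355 FPKM with a ratio of 0.884 (0.8697 to 0.898).

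The phospholipid branch, which draws on the same phosphatidic acid and diacylglycerol, had 0 of 16 genes past 1.5-fold upward and 1 downward, near the shares of all genes (5.45% and 5.74%), with a median of 0.07. The lower gene, Cds2, a CDP-diacylglycerol synthase, stood at 7.35 and 3.86 FPKM, but 2 of its 3 rows were listed at 0 in SML beside scaled counts above 0. Its count ratio was 0.770 (0.679 to 0.872), and with the implied FPKM in place of these zeros the difference was -0.37, under the size rule. Dgke, a diacylglycerol kinase below the filter, was listed at 0 in SML with a count ratio of 1.01 (0.697 to 1.47). Chpt1, the cholinephosphotransferase that uses diacylglycerol to make phosphatidylcholine, stood at 585 and 839 FPKM with a count ratio of 1.60 (1.56 to 1.64) and a log2 difference in FPKM of 0.52. Crls1, the cardiolipin synthase of mitochondria, stood at 98.5 and 147 FPKM with a ratio of 1.51 (1.42 to 1.61) and a log2 difference of 0.57. Pcyt2, of phosphatidylethanolamine synthesis, stood at 91.1 and 81.3 FPKM.

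**Figure D4:**
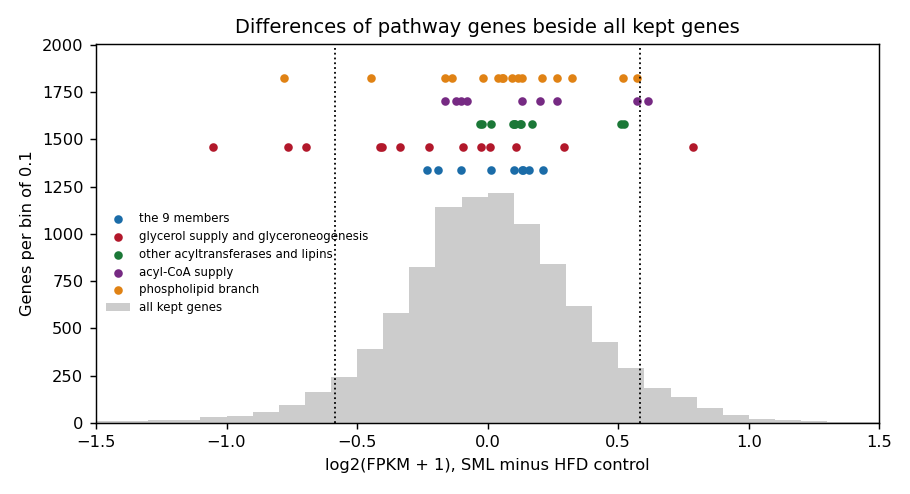
Histogram of the difference in log2(FPKM + 1), SML minus HFD control, for all kept genes within 1.5 units of 0 (grey bars, bins of 0.1), with 1 point per gene above it for the 9 enzymes and the 4 lists around them. Dotted lines mark 1.5-fold. The 9 enzymes lie within -0.23 and 0.21, and the outermost points are Got1 at -1.05 and Gyk at 0.79, both of the glycerol supply list.

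The tissue label was checked against marker lists. All 8 brown adipocyte markers were measured and 0 passed 1.5-fold, with count ratios from 0.782 for Adipoq to 1.11 for Cpt1b, beside 0.872 to 1.16 for the 9 enzymes, and Ucp1 stood at 8702 and 7955 FPKM. All 9 skeletal muscle markers passed 1.5-fold downward in SML, beside 5.74% of all genes, with a sum of 3646 FPKM in HFD control and 238 in SML. Past 1.5-fold downward as well were 6 of 6 kept hepatocyte markers (sums of 48.5 and 9.15 FPKM over all 8, with Alb, Ttr, Serpina1c and Fgb listed at 0 in SML), 4 of 4 erythroid, 5 of 8 macrophage and 1 of 4 endothelial markers. Counting any difference below 0, 7 of 8 macrophage and 4 of 4 endothelial markers were lower, beside 4915 of the 9870 kept genes. Muscle, liver and other cells also express several of the genes named here, and the part of these cells in the differences was not tested. In bulk tissue, fewer cells of a type and less RNA per cell cannot be told apart.

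Read assignment could touch 4 of the 9 genes. The annotation (GENCODE M21, build mm10) places exons of a gene on the other strand over 384 of 2961 exon bases of Gpd1, 487 of 6549 of Gpd2, 64 of 2130 of Agpat2 and 16 of 7790 of Agpat3. The library kit named in the labels does not mark strand, so fragments lying wholly within such bases cannot be assigned by strand. In build mm10 the deposited loci of the most abundant genes were chr15:99717593-99725007 for Gpd1 on the plus strand, chr2:26593057-26604417 for Agpat2 on the minus strand, chr7:99153663-99182713 for Dgat2 on the minus strand and chr2:173153073-173159253 for Pck1 on the plus strand. Gpd2 lay at chr2:57237678-57370719 on the plus strand and Dgat1 at chr15:76502015-76511818 on the minus strand. Agpat3 (chr10:78271563-78351700), Lpin1 (chr12:16535669-16589770) and Gpam (chr19:55069734-55099447) were all on the minus strand. All 9 are annotated as protein-coding, and each locus held rows of 1 symbol.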

How the data were processed

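RNA of brown adipose tissue was sequenced from 1 HFD control and 1 SML library. The deposited table gives each transcript row an FPKM and a scaled count per library. FPKM was computed by the authors, and the submitters' processing notes name CASAVA 1.8, Cufflinks and build mm10. Aligner, annotation release and filters were not stated. Counts as deposited are a scaled signal, not raw counts: low values moved in steps of 0.637 (HFD control) and 0.866 (SML), and 91.3% of 527 and 91.2% of 763 low values of up to 20 steps were whole within 0.1. Dividing by the step gave fragments for the intervals.

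Rows were summed per symbol, 17 symbols turned into dates were left out, and genes whose FPKM averaged 1 or more over both libraries were kept (9870). The pseudocount was 1. Deposited starts count from 0 (47.5% of starts plus 1 are annotated transcript starts, against 5.28% as given), so 1 was added. GC content and length of the longest GENCODE transcript were found for 9817 kept genes. Lists, members and size rule were chosen with earlier results of these data known. Named besides the 9 genes were list genes past 1.5-fold and the 3 most abundant of each list. Pck2, Gpd1l, Agpat5, Agpat9, Lclat1, Lpin2, Lpin3, Cnep1r1, Aqp7, Pcx, Slc27a2 and Dgke were named after their values were seen. Listed genes were matched by symbol or RefSeq synonym, and 50 of the list genes had a row. Computation used Python 3.11.15, pandas 2.3.3, numpy 2.4.6 and scipy 1.17.1, and the size rule was tested on simulated counts. The outcome on simulated counts is not reported here, and no value above rests on it.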

Additional observations from a re-analysis of the deposited data

How the results depend on the processing

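The count of 0 of 9 enzymes past the size held under all 12 alternatives. A size of 2-fold, a pseudocount of 5, which only shrinks a difference, and both changes of the filter could not alter it. No enzyme passed 1.5-fold, and each had a mean FPKM of 15 or more. Taking the highest row or replacing zeros repeats the main value for the 7 enzymes with a single row. A pseudocount of 0.1 or 5 cannot change the sign of a difference. Of the 9 enzymes, 8 kept the sign of their difference under all 8 alternatives for single genes. Gpam was the exception, at -0.08 with the GC and length trend removed. That setting also moved Agpat2 from 0.16 to 0.35, Gpd1 from 0.14 to 0.25 and Gpd2 from -0.10 to -0.22. Agpat2 was then past the smaller size of 0.322. With totals equal outside the 50 highest genes, which moved the median of all genes to 0.05, the median of the 9 enzymes was 0.15, and Gpd2 stood at -0.05. With the 50 highest genes taken by count, the count ratio of Gpd1 was 1.113, above the upper limit of its interval, 1.107. That of Dgat2 was 1.1085, above its limit of 1.10785, and the other enzymes stayed within their intervals. Of the pathway genes outside the 9, 2 were higher and 4 lower. The higher count was 4 with scaled counts and with totals equal outside the 50 highest genes, 1 (Gyk) with a pseudocount of 5 and at a mean FPKM of 5 or more, 0 at 2-fold and 8 at the smaller size of 0.322 on the log2 scale. After correction for GC content and length it was 1, but neither Gyk nor Acsl4 was past the size there. The gene counted was Slc27a2, at 0.57 without the correction. The lower count was 2 with a pseudocount of 5, 1 at 2-fold and 8 at the smaller size. Taking the highest row of each symbol gave 3 higher, with Lclat1 beside Gyk and Acsl4, and 3 lower, without Cds2. The cause of these moves in the counts was not tested. At the smaller size 17.0% of all genes were higher and 16.3% lower. The share of all genes was not computed for the other alternatives, so their pathway counts cannot be read against a background. Replacing zeros by the implied FPKM was chosen after seeing the data and left 2 higher and 3 lower. No paired analysis was possible because each group had 1 library, and for the same reason no replicate could be left out. Depth sets wide intervals for Gpam (732 and 544 fragments) and Acsl4 (95 and 132).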
